A study of Mus musculus with 22 samples.

Results

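The C/EBP transcription factors described here are the products of 6 mouse genes, Cebpa, Cebpb, Cebpd, Cebpg, Cebpz and Ddit3, found by symbol among the 30170 genes of a count table. All 6 were among the 14520 genes that passed a filter on low counts. RNA was sequenced from derivatives of C3H 10T1/2, mouse mesenchymal cells able to become adipocytes, made to express DNMT3A1, a de novo DNA methyltransferase. The question of the series was how methylation placed by altered DNMT3A1 bears on differentiation, and DNMT3A was WT, carried W330R, or carried W330R-R181E (the double mutant). The column names of the 6 double mutant libraries spell the latter change R181A. WT and W330R were sampled as undifferentiated cells, labelled with no treatment and no time, and on days 2, 4 and 6 of adipocyte differentiation. The double mutant was sampled on days 2, 4 and 6, so that 22 libraries cover 11 conditions with 2 libraries each.

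All cells grew in DMEM with 10% FBS. Differentiation began with 2 days in medium that also held 5 μM of the PPARγ agonist troglitazone, insulin at 5 μg/mL, 1 μM of the glucocorticoid dexamethasone, and 0.5 mM isobutylmethylxanthine, which raises cAMP. From then on the medium held 5 μg/mL insulin alone and was renewed every 2 days. Counts summed to between 8859501 and 47453908 in a library (median 19355792). The median was 18482524.5 for the 8 WT libraries, 20444686 for the 8 W330R libraries and 19047875.5 for the 6 double mutant libraries. Levels are given in CPM, counts scaled to a common library size, and values are given for replicate 1 and then replicate 2 of a condition. The labels do not say whether replicates were independent, and if they were not, the p-values measure only the spread between these samples. They also do not say that a genotype had more than 1 line, so genotype and line cannot be told apart. Column names of the undifferentiated libraries are built differently from the names of the later ones, and the step from undifferentiated cells to day 2 cannot be told apart from that difference.

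C/EBP proteins bind DNA as dimers through a basic region and a leucine zipper, and they drive the programs of fat, liver and myeloid cells. In adipogenesis, hormones that raise cAMP and glucocorticoid signalling induce C/EBPβ and C/EBPδ early, and these activate the genes of C/EBPα and PPARγ, which then keep each other and the adipocyte genes on. C/EBPγ and CHOP, the product of Ddit3, pair with the other family members and can hold them back, while Cebpz shares the name but lacks the zipper and acts in the nucleolus.

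Cebpb, on chromosome 2, encodes the early activator C/EBPβ. Its level in undifferentiated cells was 33.4 and 31.1 CPM in WT and 15.5 and 14.5 CPM in W330R. On day 2 it was 412 and 979 CPM in WT, 488 and 623 CPM in W330R, and 375 and 681 CPM in the double mutant. Every day 2 library stood above every undifferentiated library, and on day 2 the genotypes overlapped. Day 4 gave 234 and 392 CPM in WT, 192 and 193 CPM in W330R, and 155 and 203 CPM in the double mutant. Day 6 gave 241 and 313 CPM in WT, 133 and 142 CPM in W330R, and 164 and 113 CPM in the double mutant. On both later days the WT libraries stood above all libraries of the other genotypes. Ordered by condition mean, the 3 day 2 conditions led, followed by WT on days 4 and 6, then the mutants on days 4 and 6, then undifferentiated WT and last undifferentiated W330R. Libraries of neighbouring conditions in this order overlapped except between WT day 6 and W330R day 4, between W330R day 6 and undifferentiated WT, and between the undifferentiated genotypes. Over all libraries Cebpb spanned 67.7-fold, the widest span of the 6 genes.

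Cebpd, on chromosome 16, encodes C/EBPδ, the other early activator, which glucocorticoids induce. Undifferentiated cells held 79.4 and 79.7 CPM in WT and 60.6 and 68.2 CPM in W330R. The day 2 values were 257 and 454 CPM in WT, 325 and 489 CPM in W330R, and 213 and 386 CPM in the double mutant. All day 2 values stood above all undifferentiated ones, and the genotypes overlapped on day 2. The day 4 values were 151 and 233 CPM in WT, 208 and 205 CPM in W330R, and 94.9 and 166 CPM in the double mutant. By day 6 they were 144 and 163 CPM in WT, 135 and 166 CPM in W330R, and 141 and 99.7 CPM in the double mutant. WT and W330R overlapped on each of these days. The order of condition means ran from W330R, WT and the double mutant on day 2, through the later conditions, to undifferentiated WT and W330R. The breaks in that order, where neighbouring conditions did not overlap, lay below the day 2 conditions and on both sides of undifferentiated WT. Cebpd spanned 8.07-fold over the 22 libraries.

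Cebpa, on chromosome 7, encodes C/EBPα, which maintains the adipocyte state and insulin sensitivity together with PPARγ. Undifferentiated cells held 15.5 and 18.03 CPM in WT and 8.57 and 10.3 CPM in W330R. On day 2 the level was 76.9 and 134 CPM in WT, 16.5 and 19.4 CPM in W330R, and 39.8 and 53.8 CPM in the double mutant. The 3 genotypes did not overlap on day 2, with WT highest and W330R lowest, and day 2 of W330R overlapped undifferentiated WT. The day 4 libraries held 102 and 98.8 CPM in WT, 24.6 and 23.2 CPM in W330R, and 25.7 and 43.9 CPM in the double mutant. The day 6 libraries held 83.4 and 82.1 CPM in WT, 23.7 and 17.99 CPM in W330R, and 15.5 and 28.7 CPM in the double mutant. WT stood above both mutants on both days, and the double mutant stood above W330R on day 4 and overlapped it on day 6. In the order of condition means, WT on days 2, 4 and 6 led, followed by the double mutant on days 2 and 4. W330R day 4, double mutant day 6, W330R day 6, W330R day 2 and undifferentiated WT came next, each overlapping its neighbour, and undifferentiated W330R was last. Libraries did not overlap between WT days 4 and 6, below WT day 6, below double mutant day 4 and above undifferentiated W330R. Cebpa spanned 15.7-fold.

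Cebpg, a near neighbour of Cebpa on chromosome 7, encodes C/EBPγ, a member without a strong activation domain that forms dimers with other family members and with ATF4. Undifferentiated cells held 139 and 144 CPM in WT and 129 and 123 CPM in W330R. Day 2 cells held 180 and 186 CPM in WT, 156 and 137 CPM in W330R, and 134 and 155 CPM in the double mutant. WT stood above both mutants on day 2, and the mutants overlapped. Day 4 cells held 143 and 163 CPM in WT, 96.8 and 90.7 CPM in W330R, and 88.6 and 115 CPM in the double mutant. Day 6 cells held 115 and 204 CPM in WT, 65.5 and 65.9 CPM in W330R, and 63.6 and 125 CPM in the double mutant. W330R stood below WT on both days, and the double mutant stood below WT on day 4. On day 6 the replicates of WT and of the double mutant lay far apart, and these genotypes overlapped. The 4 WT conditions and the day 2 mutants formed the top of the order, undifferentiated W330R lay below them, and the mutants on days 4 and 6 were lowest. Neighbours did not overlap on either side of undifferentiated W330R and above W330R day 6, the lowest condition. The span was 3.21-fold.

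Ddit3, on chromosome 10, encodes CHOP, which is induced by the integrated stress response and blocks C/EBPβ and C/EBPα by pairing with them. The undifferentiated levels were 141 and 145 CPM in WT and 78.7 and 79.0 CPM in W330R. The day 2 levels were 170 and 168 CPM in WT, 132 and 105 CPM in W330R, and 120 and 151 CPM in the double mutant. W330R was below WT in undifferentiated cells and on day 2, with the double mutant between them on day 2 and overlapping W330R. The day 4 levels were 64.1 and 148 CPM in WT, 58.7 and 98.6 CPM in W330R, and 64.0 and 116 CPM in the double mutant. The day 6 levels were 88.0 and 171 CPM in WT, 78.4 and 92.9 CPM in W330R, and 128 and 86.1 CPM in the double mutant. All genotypes overlapped on days 4 and 6. Replicates differed widely on these days, except those of W330R on day 6. Condition means ran from WT day 2 down to W330R day 4, and WT day 2 was the one condition that did not overlap the next in the order, undifferentiated WT. The span was 2.92-fold.

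Cebpz, on chromosome 17, encodes a CCAAT-binding protein of the nucleolus that takes part in ribosome assembly. Its undifferentiated levels were 44.5 and 49.6 CPM in WT and 38.1 and 38.7 CPM in W330R. On day 2 they were 36.5 and 30.7 CPM in WT, 52.5 and 41.4 CPM in W330R, and 38.4 and 31.2 CPM in the double mutant. W330R lay above the other genotypes on day 2 and below WT before differentiation. On day 4 they were 40.7 and 32.0 CPM in WT, 49.9 and 35.4 CPM in W330R, and 36.7 and 30.3 CPM in the double mutant. On day 6 they were 27.3 and 30.4 CPM in WT, 29.2 and 32.1 CPM in W330R, and 28.8 and 38.8 CPM in the double mutant. All genotypes overlapped on days 4 and 6, and every condition overlapped the next in the order of means, from undifferentiated WT at the top to WT day 6 at the bottom. The span of 1.93-fold was the narrowest of the 6 genes. Cebpe, the remaining C/EBP gene and one of the myeloid lineage, is outside the list. It had between 0 and 2 counts per library, under the floor of 3 counts below which no level was read, and gets no fold change. Such floors cover counting error only.

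**Figure D1:**
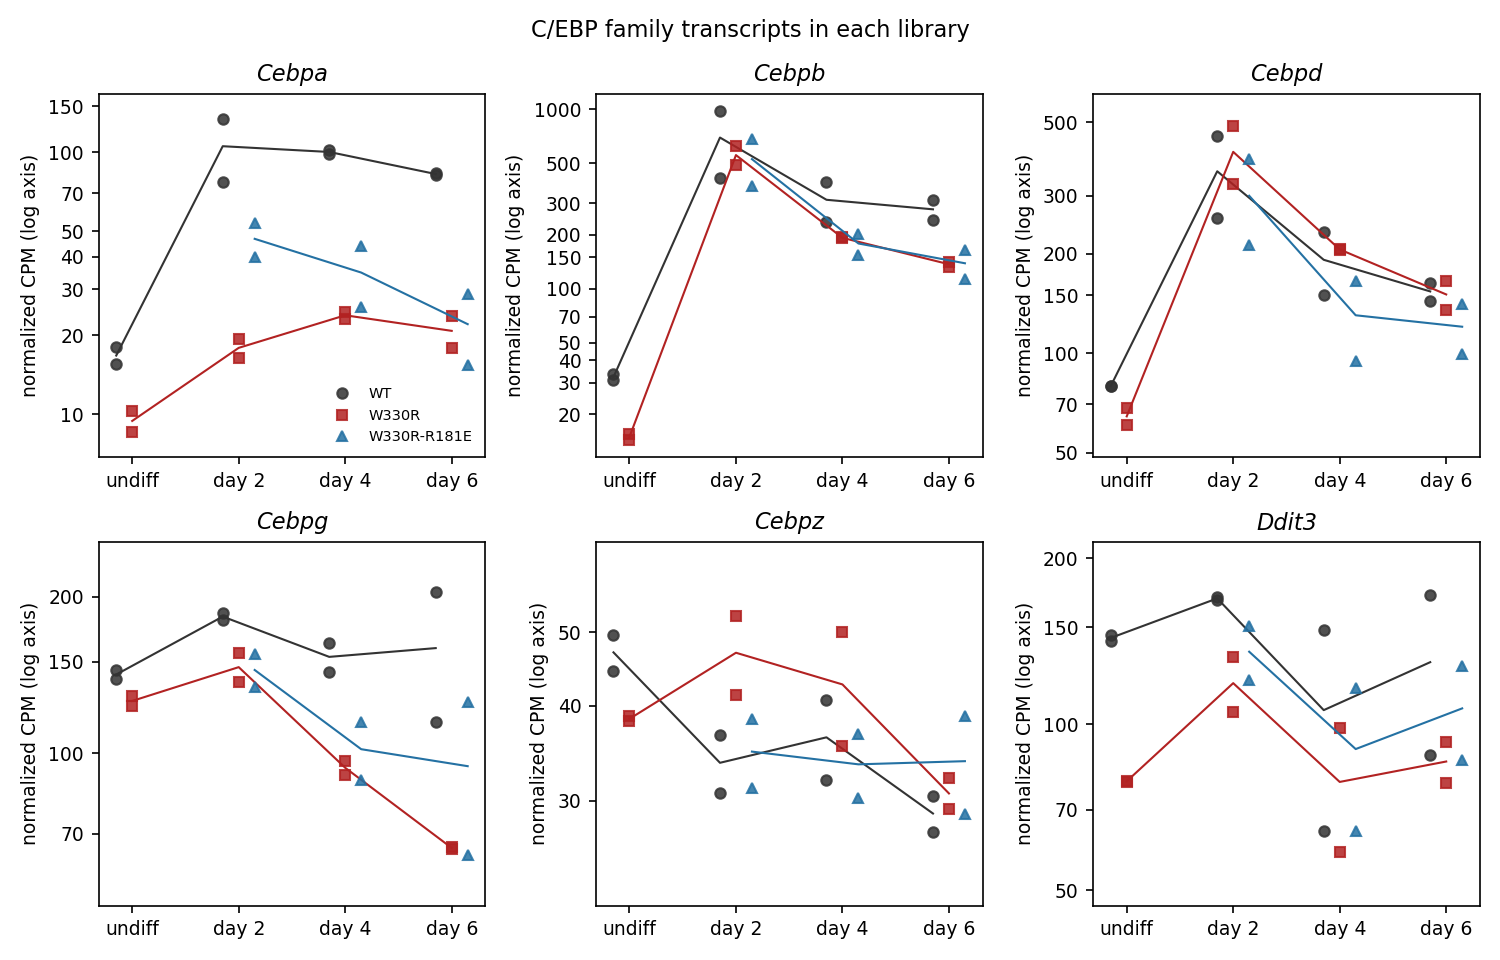
Normalized CPM (log axis) of the 6 C/EBP genes by stage. Each point is a library, lines join the condition means, and black circles are WT, red squares W330R and blue triangles the double mutant. On days 2 to 6, WT Cebpa lies between 76.9 and 134 CPM, above all mutant libraries.

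To compare genes with each other, CPM was divided by the length in kilobases of the longest coding transcript, from 0.89 kb for Ddit3 to 4.709 kb for Cebpg. On this scale Ddit3 was the highest of the 6 in undifferentiated cells, at a mean of 161 CPM per kb in WT and 88.6 in W330R, and Cebpa was the lowest, at 6.38 and 3.59. On day 2 Cebpb led in every genotype, with means of 462 CPM per kb in WT, 369 in W330R and 351 in the double mutant, followed by Ddit3 and Cebpd. The place of Cebpa differed by genotype on day 2, from the fourth of the 6 in WT (40.2 CPM per kb) to the fifth in the double mutant (17.8) and the last in W330R (6.83, below Cebpz at 11.5). As a share of the summed CPM per kb of the 6 genes, Cebpb went from 8.92% and 8.11% in undifferentiated WT to 44.9% and 61.4% on day 2, and Ddit3 from 63.9% and 64.1% to 31.3% and 17.8%. The Cebpa share on day 2 was 4.798% and 4.83% in WT, 1.02% and 1.04% in W330R, and 3.07% and 2.61% in the double mutant. By day 6 Ddit3 and Cebpb had similar shares in W330R, at 36.3% and 38.4% for Ddit3 and 36.3% and 34.7% for Cebpb. These shares depend on the transcript lengths taken from the annotation, and no test was run on them.

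**Figure D2:**
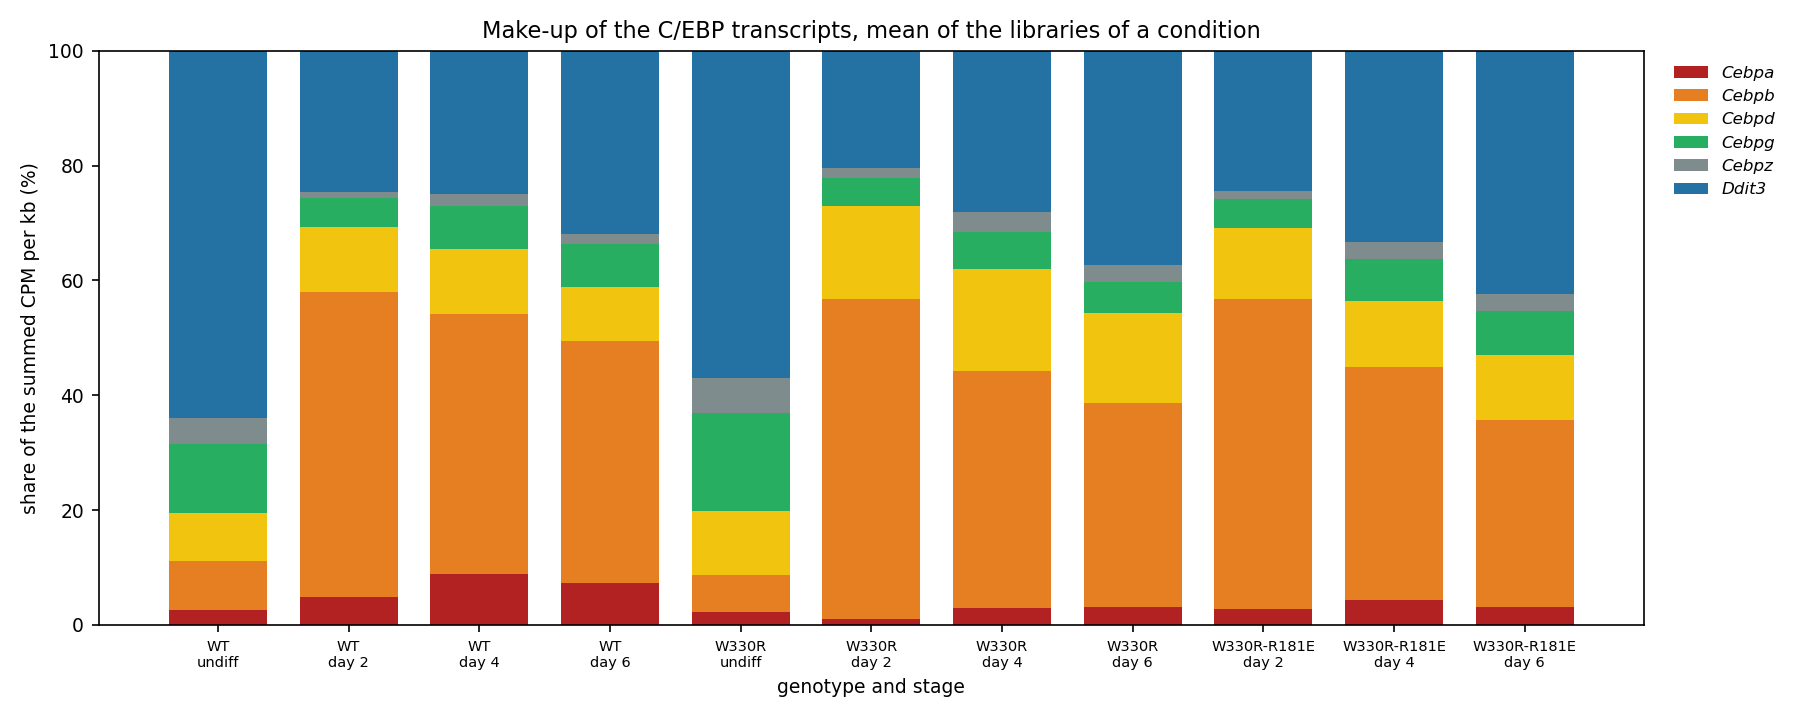
Share (%) of each gene in the summed CPM per kb of the 6 C/EBP genes, mean of the 2 libraries of each condition. Ddit3 (blue) takes 64.0% in undifferentiated WT, and Cebpb (orange) takes between 53.2% and 55.7% on day 2.

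Counts of Cebpa per 100 counts of Cebpb within a library do not depend on how libraries are scaled. On day 2 they were 18.7 and 13.7 in WT, 3.38 and 3.11 in W330R, and 10.6 and 7.90 in the double mutant. On day 4 they were 43.5 and 25.2 in WT, 12.9 and 11.98 in W330R, and 16.5 and 21.7 in the double mutant. The 3 genotypes did not overlap on either day, and the double mutant lay between W330R and WT. Day 6 gave 34.6 and 26.2 in WT, 17.9 and 12.7 in W330R, and 9.41 and 25.3 in the double mutant, so that WT stood apart and the double mutant spread across W330R. In undifferentiated cells the genotypes overlapped, at 46.4 and 57.9 in WT and 55.3 and 71.2 in W330R. Counts of Cebpb per 100 of Cebpd had a median of 168 (range 156 to 216) over the 6 WT libraries of days 2 to 6, 96.1 (85.4 to 150) in W330R and 143 (114 to 176) in the double mutant. The WT and W330R ranges of this ratio did not overlap, because the highest W330R value lay below the lowest WT value.

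Stage steps were tested with edgeR across all 14520 genes, and a gene was called at an adjusted p under 0.05. Log2 fold changes are given with their standard error (SE), and each rests on 2 libraries per condition. From undifferentiated cells to day 2 in WT, Cebpb rose 21.6-fold (log2 4.43 ± 0.42 SE, adjusted p = 1.59e-06), Cebpa rose 6.29-fold (2.65 ± 0.33, adjusted p = 1.59e-05) and Cebpd rose 4.47-fold (2.16 ± 0.36, adjusted p = 0.000204). Thus 3 of 6 members were called, all up, where 50.9% of all genes were called. Without WT day 2 replicate 2 the log2 change of Cebpb was 3.66. The value for Cebpz was -0.48 ± 0.20 (adjusted p = 0.0595). It was called by DESeq2 (-0.49), in a fit of the 4 libraries of the step alone (-0.49) and with the replicate number as a block (-0.49). It was also called without W330R day 4 replicate 1 (-0.51) or 2 (-0.48) or double mutant day 6 replicate 1 (-0.49) or 2 (-0.48). Bulk RNA cannot tell fewer cells of a type apart from less RNA per cell, here and in all results that follow.

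In W330R the same step gave 3 of 6 called, where 48.2% of all genes were. Cebpb rose 37.0-fold (log2 5.21 ± 0.44, adjusted p = 8.89e-07), Cebpd rose 6.32-fold (2.66 ± 0.37, adjusted p = 5.37e-05) and Cebpa rose 1.91-fold (0.93 ± 0.33, adjusted p = 0.0314). The call of Cebpa in W330R was lost without undifferentiated W330R replicate 1 (0.80) or 2 (1.07), and without W330R day 2 replicate 1 (1.05) or 2 (0.81). The edgeR value for Ddit3 was 0.59 ± 0.40 (adjusted p = 0.235), and a fit of the 4 libraries of the step alone called it (0.59).

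Between days 2 and 4, Cebpb fell by 1.53 ± 0.37 on the log2 scale in W330R (edgeR adjusted p = 0.0166), the 1 call among the 6 members there, where 12.4% of all genes were called. In the double mutant it fell by 1.56 ± 0.37 (adjusted p = 0.0181) and Cebpd fell by 1.20 ± 0.35 (adjusted p = 0.0419), which made 2 of 6 where 10.7% of all genes were called. In WT the value for Cebpb was -1.15 ± 0.37 (adjusted p = 0.0594) and that for Cebpd -0.89 ± 0.35 (adjusted p = 0.117). The WT step had 0 of 6 members called by edgeR, 2 at an unadjusted p under 0.05 and 1 by DESeq2, where 10.8% of all genes were called. Whether the step differed between genotypes was not tested.

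These day 2 to day 4 calls depended on single libraries. The W330R call of Cebpb was lost without W330R day 2 replicate 1 (-1.70) or 2 (-1.34) or day 4 replicate 1 (-1.52) or 2 (-1.54). In the double mutant, the Cebpb call was lost without its day 2 replicate 2 (-1.07) or day 4 replicate 1 (-1.38) or 2 (-1.75), and in a fit of the step's libraries alone (-1.55). The Cebpd call of the double mutant was lost in that fit (-1.19) and without double mutant day 2 replicate 2 (-0.71) or day 4 replicate 1 (-0.86). It was also lost, with the value at -1.20, without either undifferentiated library of WT or of W330R, or either W330R library of day 4 or of day 6. In WT, Cebpb was called by DESeq2 (-1.13), without the filter on low counts (-1.17), and without WT day 2 replicate 1 (-1.64) or either double mutant day 2 library (-1.15 and -1.14). Cebpd in W330R, at -0.98 ± 0.35 (edgeR adjusted p = 0.079), was called by DESeq2 (-0.96) and without the filter (-1.01). With the replicate number as a block in the fit, Cebpb (-1.13) and Cebpd (-0.88) were called in WT and Cebpd (-0.95) in W330R. The labels do not say what that number marks.

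From day 4 to day 6 the members' levels gave no call by edgeR in any genotype. In WT, 0 of 6 were called by edgeR, 0 at an unadjusted p under 0.05 and 0 by DESeq2, beside 0.324% of all genes. In W330R, 0 of 6 were called by edgeR, 1 at an unadjusted p under 0.05 (Cebpz, -0.47 ± 0.20) and 0 by DESeq2. Of all genes, edgeR called 0% in that W330R step, while 959 had an unadjusted p under 0.05 and DESeq2 called 112. In the double mutant, 0 of 6 were called by edgeR, 1 at an unadjusted p under 0.05 (Cebpa, -0.68 ± 0.31) and 0 by DESeq2, beside 0.0207% of all genes.

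Between W330R and WT, Cebpa had the largest difference of the 6 genes on each of days 2, 4 and 6. On day 2 it was 5.89-fold lower in W330R (log2 -2.56 ± 0.33 SE, edgeR adjusted p = 0.00268), the only 1 of 6 called beside 3.06% of all genes. On day 4 it was 4.21-fold lower (-2.07 ± 0.32, adjusted p = 0.00471), again 1 of 6, beside 6.14% of all genes. By day 6, Cebpa was 3.96-fold lower (-1.99 ± 0.32, adjusted p = 0.00275) and Cebpg 2.42-fold lower (-1.28 ± 0.27, adjusted p = 0.0133), which made 2 of 6 beside 7.54% of all genes. Cebpb on day 6 was at -1.02 ± 0.37 (adjusted p = 0.113). The largest positive value was that of Cebpz on day 2, at 0.48 ± 0.20 (adjusted p = 0.221), while Cebpd lay between -0.03 and 0.19 on these days.

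In a fit of the 4 libraries of the comparison alone, the calls of Cebpa on day 2 (-2.55) and day 4 (-2.08) and of Cebpg on day 6 (-1.29) were lost. Over all genes, such fits gave 4094 calls summed over the 4 stages, 4043 of them in undifferentiated cells. The fit of all 22 libraries gave 2685 in sum and 254 in undifferentiated cells. The day 4 call of Cebpa was lost without W330R day 4 replicate 1 (-2.10), and the day 6 call of Cebpa without W330R day 6 replicate 2 (-1.79). That of Cebpg on day 6 was lost without WT day 6 replicate 2 (-0.80) or W330R day 6 replicate 1 (-1.27) or 2 (-1.27). Cebpb on day 6 was called by DESeq2 (-1.03) and without WT day 2 replicate 1 (-1.02) or 2 (-1.03).

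In undifferentiated cells, both W330R libraries lay below both WT libraries for 6 of 6 members, and so did 32.3% of all genes. With all 22 libraries in the fit, edgeR called 0 of 6 members between these groups, 3 had an unadjusted p under 0.05 and DESeq2 called 0, beside 1.75% of all genes. The undifferentiated replicates resembled each other far more than those of days 2 to 6. Chi-square per degree of freedom between the 2 libraries of a condition, which is 1 for counting error alone, was 3.40 in WT and 3.10 in W330R before differentiation. It ranged from 29.3 to 103 on days 2 to 6. In an edgeR fit of the 4 undifferentiated libraries alone, 27.8% of all genes were called and 14.4% were called lower in W330R. All 6 members were among the latter, with log2 values of -1.09 ± 0.10 for Cebpb (adjusted p = 0.000103), -0.86 ± 0.04 for Ddit3 (adjusted p = 4.61e-06) and -0.84 ± 0.14 for Cebpa (adjusted p = 0.00296). Those of Cebpd, Cebpz and Cebpg were -0.31 ± 0.06, -0.29 ± 0.07 and -0.16 ± 0.04. In the fit of all 22 libraries, Cebpb was at -1.10 ± 0.39, Ddit3 at -0.86 ± 0.40 and Cebpa at -0.84 ± 0.33. The log2 values of these 3 were thus close in both fits, and the SE was larger with all 22 libraries. Why the SE differed was not tested.

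Between the double mutant and W330R, Cebpa was 2.61-fold higher in the double mutant on day 2 (log2 1.38 ± 0.32, edgeR adjusted p = 0.0326), the 1 call among 6 members, beside 2.67% of all genes. Its values on days 4 and 6 were 0.55 ± 0.31 (adjusted p = 0.483) and 0.06 ± 0.31 (adjusted p = 0.974). On day 4, edgeR called 0 of 6 members, 0 had an unadjusted p under 0.05 and DESeq2 called 0, beside 1.91% of all genes. On day 6 the counts were likewise 0 by edgeR, 0 at an unadjusted p under 0.05 and 0 by DESeq2, beside 1.5% of all genes. The day 2 call was lost without undifferentiated WT replicate 1 (1.38) or 2 (1.38), W330R day 2 replicate 1 (1.27) or 2 (1.51), or double mutant day 2 replicate 2 (1.16), and in a fit of the 4 libraries alone (1.39). Fits of that kind called 0 of all genes on days 2, 4 and 6.

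Between the double mutant and WT, Cebpa was 3.81-fold lower in the double mutant on day 6 (log2 -1.93 ± 0.32, edgeR adjusted p = 0.016), which made 1 of 6 beside 0.875% of all genes. The call was lost without WT day 6 replicate 2 (-1.94) or double mutant day 6 replicate 1 (-1.53), and in a fit of the 4 libraries alone (-1.92). Here too, fits of that kind called 0 of all genes on days 2, 4 and 6. On day 2 Cebpa was at -1.17 ± 0.31 (adjusted p = 0.282) and on day 4 at -1.53 ± 0.31 (adjusted p = 0.123), values that DESeq2 called (-1.18 and -1.54), the latter also without the filter on low counts (-1.49). For day 2, edgeR called 0 of 6 members, 1 had an unadjusted p under 0.05 and DESeq2 called 1. Among all genes of day 2, edgeR called 0%, 1300 had an unadjusted p under 0.05 and DESeq2 called 110. For day 4, edgeR called 0 of 6 members, 3 had an unadjusted p under 0.05 and DESeq2 called 1. Among all genes of day 4, edgeR called 0%, 1637 had an unadjusted p under 0.05 and DESeq2 called 160. Cebpg on day 6, at -0.76 ± 0.27 (edgeR adjusted p = 0.205), was called without double mutant day 6 replicate 2 (-1.32).

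**Figure D3:**
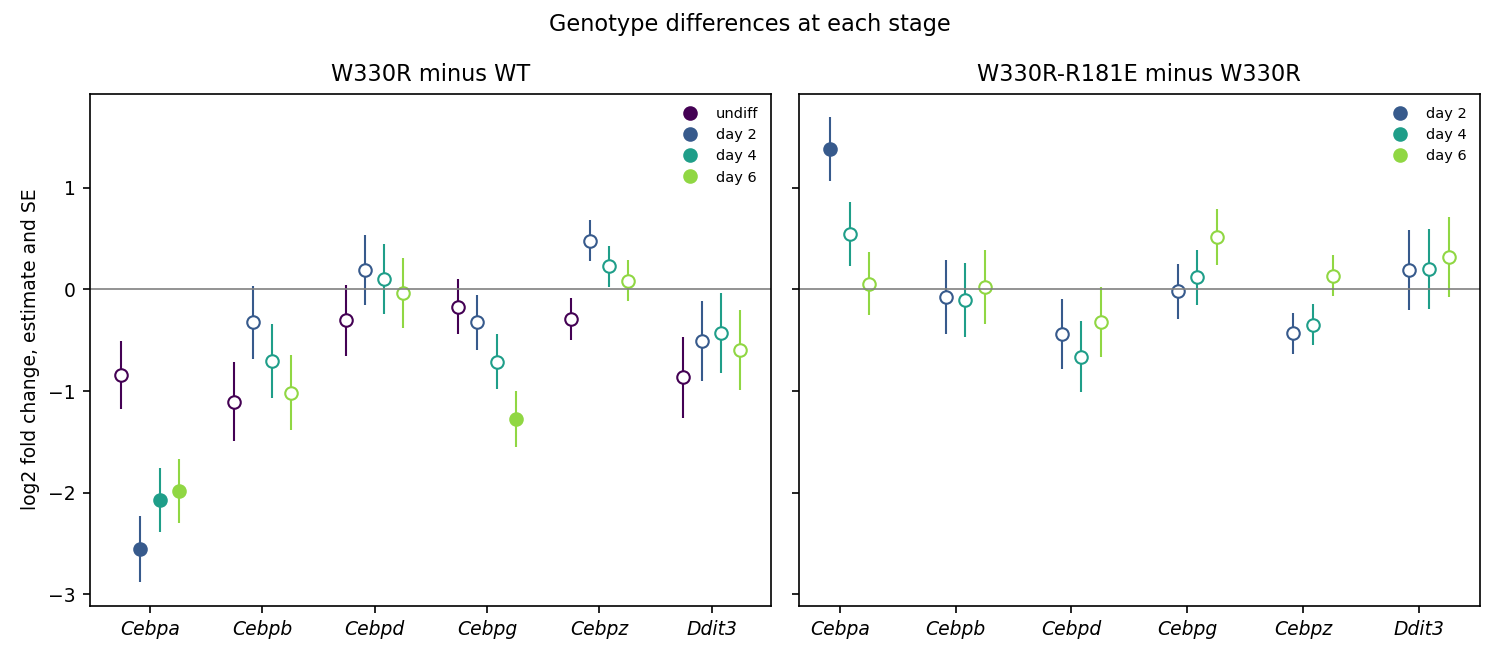
Log2 fold change with its SE (bars) for the 6 C/EBP genes at each stage, W330R minus WT on the left and the double mutant minus W330R on the right. Filled points were called by edgeR at an adjusted p under 0.05 in the fit of all 22 libraries, and Cebpa holds 4 of the 5 filled points.

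Averaged over days 2, 4 and 6, the stages that all genotypes have, W330R differed from WT in 3 of 6 members, all lower in W330R, beside 29% of all genes. Cebpa was 4.61-fold lower (log2 -2.21 ± 0.18, edgeR adjusted p = 8.9e-06), Cebpg 1.71-fold lower (-0.77 ± 0.16, adjusted p = 0.00251) and Cebpb 1.60-fold lower (-0.68 ± 0.21, adjusted p = 0.0257). Cebpd was at 0.09 ± 0.20 (adjusted p = 0.782), Cebpz at 0.27 ± 0.12 (adjusted p = 0.102) and Ddit3 at -0.51 ± 0.23 (adjusted p = 0.106). The median over the 6 members was -0.60, and that over all genes 0.02. The Cebpb call was lost without WT day 2 replicate 2 (-0.43), WT day 4 replicate 2 (-0.55), WT day 6 replicate 2 (-0.61), W330R day 2 replicate 1 (-0.63), either W330R day 4 library (-0.67 and -0.68) or either W330R day 6 library (-0.67 and -0.68). Cebpz was called without W330R day 4 replicate 2 (0.34), and Ddit3 without WT day 4 replicate 1 (-0.67) or WT day 6 replicate 1 (-0.65).

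The double mutant averaged over the same days stood between W330R and WT in Cebpa and near W330R in Cebpb. Against W330R, Cebpa was 1.58-fold higher (log2 0.66 ± 0.18, edgeR adjusted p = 0.0213), 1 of 6 members beside 17.2% of all genes, and Cebpb was at -0.05 ± 0.21 (adjusted p = 0.916). The Cebpa call was lost without W330R day 2 replicate 1 (0.62), W330R day 4 replicate 2 (0.65), W330R day 6 replicate 2 (0.60), double mutant day 4 replicate 2 (0.53) or double mutant day 6 replicate 2 (0.50). Cebpd, at -0.47 ± 0.20 (adjusted p = 0.121), was called without double mutant day 2 replicate 2 (-0.63) and with the replicate number as a block (-0.48). Against WT, 3 of 6 members were called lower in the double mutant, beside 9.57% of all genes. These were Cebpa (2.91-fold, -1.54 ± 0.18, adjusted p = 0.000666), Cebpb (1.66-fold, -0.73 ± 0.21, adjusted p = 0.0433) and Cebpg (1.48-fold, -0.56 ± 0.16, adjusted p = 0.0383). These averaged comparisons share libraries with each other and with those of single days.

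The latter calls of Cebpb and Cebpg were close to the threshold. A fit of the compared conditions alone lost both (-0.73 for Cebpb and -0.56 for Cebpg). Of the 22 fits that each left out 1 library, 5 kept the Cebpb call, those without WT day 2, day 4 or day 6 replicate 1 or without double mutant day 2 or day 4 replicate 2. In the others its value lay between -0.83 (without double mutant day 6 replicate 1) and -0.48 (without WT day 2 replicate 2). For Cebpg 8 of the 22 kept the call, those without replicate 1 of WT on day 2, 4 or 6, replicate 2 of the double mutant on day 2, 4 or 6, or either W330R day 2 library. In the other fits the Cebpg value lay between -0.56 and -0.41, the latter without WT day 6 replicate 2.

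Whether a genotype difference changed between stages was tested as a difference of differences. For W330R minus WT, day 6 less undifferentiated cells, Cebpa had -1.15 ± 0.45 (edgeR adjusted p = 0.196) and Cebpg -1.11 ± 0.38 (adjusted p = 0.132). Here edgeR called 0 of 6 members, 2 had an unadjusted p under 0.05 and DESeq2 called 0, beside 3.88% of all genes. A fit of the conditions concerned alone called Cebpa (-1.14), and Cebpg was called without WT day 6 replicate 1 (-1.46). For W330R minus WT, day 6 less day 2, edgeR called 0 of 6, 1 had an unadjusted p under 0.05 (Cebpg, -0.95 ± 0.38) and DESeq2 called 0, beside 0.0895% of all genes. For the double mutant minus W330R, day 6 less day 2, Cebpa had -1.33 ± 0.44 (adjusted p = 0.929). In that comparison edgeR called 0 of 6, 1 had an unadjusted p under 0.05 and DESeq2 called 0. Of all genes it called 0%, with 596 at an unadjusted p under 0.05 and 39 called by DESeq2.

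Across the 22 libraries, Cebpb and Cebpd had the most alike patterns among the 6 members, with a Pearson correlation of log2 CPM of 0.92. Cebpa correlated with Cebpb at 0.69, with Cebpd at 0.50, with Cebpg at 0.49 and with Cebpz at -0.43. These points share stages, genotypes and libraries, and the values are descriptions. Among 11154 genes, those with the pattern most like Cebpa were Dgkd, a diacylglycerol kinase (0.92), Scd1, the stearoyl-CoA desaturase of fat synthesis (0.91), and Ywhag (0.91). The closest to Cebpb were Tysnd1, Iscu and Lamb1 (0.98 each), and to Cebpd Arfrp1 (0.95), Sft2d1 (0.95) and Adarb1 (0.94). Those closest to Cebpg were Trmt10c (0.93), Mtm1 (0.93) and Grpel2 (0.92), and to Cebpz Zfp160 (0.88), Upf2 (0.87) and Sp4 (0.85). Ddit3 was most like Atf3, a stress-induced bZIP factor that acts downstream of ATF4 (0.88), Sqstm1 (0.83) and Lonp1 (0.82). With Spearman's correlation or with the 11 condition means, between 0 and 2 of each 3 names stayed.

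Among 11 regulators known to act on C/EBP genes, the WT step from undifferentiated cells to day 2 had 4 called up and 2 down (4 to 5 and 1 to 2 when any 1 library was left out), near the 50.9% of all genes called in that step. Creb1 was the one whose fall was lost, without undifferentiated WT replicate 2 (-0.69) or WT day 2 replicate 2 (-0.58). The rise of Stat3 was lost without WT day 2 replicate 2 (0.83). The largest change by log2 among the 6 called was in Klf4, an activator of Cebpb, from 400 and 402 CPM to 22.4 and 13.8 CPM (-4.48 ± 0.35). It thus fell as Cebpb rose. Klf15, which was not called, had 0 and 0 counts in undifferentiated cells and 65 and 0 on day 2. From day 2 to day 4 in WT, 1 of the 11 was called, beside 10.8% of all genes, Klf5, a target of C/EBPβ and C/EBPδ, at -1.79 ± 0.41, a call lost without WT day 2 replicate 1 (-1.30) or WT day 4 replicate 2 (-1.40) and in a fit of the step alone (-1.80). In the averaged comparison of W330R with WT, which called 29% of all genes, 2 of the 11 were higher, Klf4 (0.95 ± 0.18) and Klf5 (0.71 ± 0.23), and 3 lower, Srebf1 (-0.66 ± 0.12), Stat5a (-0.31 ± 0.10) and Stat5b (-0.27 ± 0.07). The Klf5 call was lost without replicate 2 of WT on day 2 (0.59), day 4 (0.57) or day 6 (0.53) or any 1 of the W330R libraries of days 2 to 6 (0.69 to 0.73). That of Stat5a was lost without replicate 2 of WT on day 2 (-0.27), day 4 (-0.28) or day 6 (-0.28) or replicate 1 of W330R on day 2 (-0.23), day 4 (-0.26) or day 6 (-0.28). A fit of the compared conditions alone also lost both (0.70 for Klf5 and -0.33 for Stat5a), and one without the filter lost Stat5a (-0.30) and Stat5b (-0.26). The median of the list was -0.19, against 0.02 over all genes. Of these 11, the double mutant had 1 higher (0 to 1 when any 1 library was left out) and 1 lower (0 to 2) against W330R, beside 17.2% of all genes. Against WT it had 1 higher and 1 lower (0 to 2 lower with a library left out), beside 9.57% of all genes, and a fit of the compared conditions alone called 0 and 0.

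Of 10 tested adipocyte genes whose promoters C/EBP proteins drive, 8 were called lower in W330R over days 2 to 6 (7 to 8 when any 1 library was left out), where 2142 of all 14520 genes were, with a list median of -1.28 against 0.02 over all genes. The largest was Scd1, at -2.30 ± 0.22, with 2957 and 5158 CPM on day 2 in WT, 1029 and 709 CPM in W330R and 1353 and 2713 CPM in the double mutant. The double mutant had 5 of the 10 higher than W330R (2 to 5 when any 1 library was left out and 3 in a fit of the compared conditions alone, median 0.71, against 0.01) and 3 lower than WT (3 to 4 with a library left out, median -0.56, against 0.00), beside 1142 and 743 of all genes in these directions. In the WT step to day 2, 8 of 10 rose (8 to 9 with a library left out), where 3843 of all 14520 genes did. The median was 3.57 with the 4 genes at or under 3 counts per undifferentiated library set at that floor. In the following WT step, to day 4, 4 rose (3 to 5 with a library left out), where 961 of all genes did. They were Cfd, the adipocyte protease adipsin (5.82 ± 0.64), Adipoq (3.31 ± 0.37), Slc2a4 (3.30 ± 0.38) and Retn (2.95 ± 0.72). The Retn call was lost without WT day 2 replicate 2 (2.64) or day 4 replicate 1 (1.84) and in a fit of the step alone (2.93).

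Genes of the acute-phase response that C/EBPβ and C/EBPδ drive numbered 7 among those tested. In the WT step to day 2, when Cebpb and Cebpd rose, 4 rose and 2 fell (4 to 5 and 1 to 2 with a library left out), where 50.9% of all genes were called. The falls were those of Ptx3 and of Ccl2 (-3.67 ± 1.47), and the latter was called in 12 of the 22 fits that each left out 1 library, with values between -6.31 (without WT day 2 replicate 2) and -2.92 (without WT day 2 replicate 1). It was also not called after RLE scaling (-3.67). The largest change was in Lcn2, which binds bacterial siderophores, with 2 and 0 counts in undifferentiated cells and 232 and 1793 CPM on day 2. The median was 7.38 with the 3 genes at or under the floor set at it. Over days 2 to 6, the 1 of 7 called between W330R and WT (1 to 2 when any 1 library was left out, 2 by DESeq2), beside 29% of all genes, was Orm1, an acute-phase plasma protein, at -2.48 ± 0.40, beside a list median of -1.62. DESeq2 called 4707 of all genes in this averaged comparison. With the replicate number as a block, 1 of the 7 was called higher and 3 lower in W330R. For W330R against WT at single stages, the block called 4906 of all genes in sum, against 2685 without it. The double mutant had 2 of 7 higher than W330R (1 to 2 when any 1 library was left out, 1 in a fit of the compared conditions alone), where 17.2% of all genes were called. Against WT edgeR called 0, with 1 at an unadjusted p under 0.05 and 0 by DESeq2, where 9.57% of all genes were called. In the next WT step, to day 4, edgeR called 0 of the 7, 2 had an unadjusted p under 0.05 and DESeq2 called 1, beside 10.8% of all genes called by edgeR, 3817 genes at that p and 2216 by DESeq2.

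Of 14 genes of the stress arm around CHOP (targets and partners of ATF4 and of the unfolded protein response), 12 were called lower in W330R than in WT over days 2 to 6 (9 to 12 when any 1 library was left out), where 2142 of all 14520 genes were, with a median of -0.71 against 0.02, while Ddit3 was at -0.51 and not called. The largest was Ero1l, an oxidase of the endoplasmic reticulum, at -1.98 ± 0.25, and the 1 called higher was Tnfrsf10b, a death receptor that CHOP induces, at 0.55 ± 0.13. Against W330R the double mutant had 10 of 14 higher (7 to 11 when any 1 library was left out, median 0.81, against 0.01), where 1142 of all genes were. Against WT it had 2 higher (1 to 2) and 1 lower (1 to 2), beside 9.57% of all genes called, with a median of -0.02 against 0.00, and a fit of the compared conditions alone called 0 and 0. In the WT step to day 2, which called 50.9% of all genes, 2 of the 14 rose (2 to 3 with a library left out), Dnajb9, a chaperone of the endoplasmic reticulum (4.16 ± 0.41), and Sesn2 (1.22 ± 0.20). In that step 3 fell (2 to 4), Trib3, an inhibitory pseudokinase (-1.41 ± 0.32), Hspa5 (-0.82 ± 0.14) and Tnfrsf10b (-0.66 ± 0.22). The Tnfrsf10b call of the step was lost without undifferentiated WT replicate 1 (-0.63) or 2 (-0.68) or WT day 2 replicate 2 (-0.43), and in a fit of the step alone (-0.67). Between days 2 and 4 in WT, 5 of 14 fell (1 to 6 when any 1 library was left out), beside 10.8% of all genes called, the largest Chac1, which degrades glutathione (-2.04 ± 0.40), followed by Atf5, Sesn2, Atf4 and Asns.

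In that day 2 to day 4 step of WT, a fit of its 4 libraries alone called none of these 5 genes, with Sesn2 at -1.23. The value of Chac1 was -2.66 without WT day 4 replicate 2, and that of Atf5 was -1.71. Without WT day 4 replicate 1 the calls of Chac1 (-1.62), Asns (-0.65), Atf5 (-0.91) and Atf4 (-0.72) were lost. Without WT day 2 replicate 2 those of Asns (-0.61), Atf5 (-0.65) and Atf4 (-0.79) were lost, and that of Atf5 also without either undifferentiated WT library (-1.26). Ddit3 in the same step was at -0.67 ± 0.39 (edgeR adjusted p = 0.305).

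Of 13 cofactors and enzymes that modify or degrade C/EBP proteins, 1 was called higher and 5 lower in W330R over days 2 to 6 (2 to 5 lower when any 1 library was left out), beside 29% of all genes called, with a median of -0.19. The one higher was Trib2 (0.52 ± 0.13), a pseudokinase that leads C/EBPα to degradation by the ligase COP1, and its relative Trib1 had the largest difference (-0.81 ± 0.23). The Trib1 call was lost without replicate 2 of WT on day 2 (-0.64), day 4 (-0.59) or day 6 (-0.73) or without W330R day 6 replicate 1 (-0.72). Against W330R the double mutant had 2 of the 13 higher (1 to 3 when any 1 library was left out) and 2 lower, beside 17.2% of all genes called. Against WT it had 4 lower (0 to 4), beside 9.57% of all genes called, and a fit of the compared conditions alone called 0. In the WT step to day 2, 2 rose and 4 fell (0 to 3 and 2 to 4 with a library left out, 0 and 2 in a fit of the step alone), a share no higher than the 50.9% of all genes. The largest of these changes was that of Trib2 (-1.24 ± 0.22). In the WT step to day 4 the 1 of 13 called, beside 10.8% of all genes, was Fbxw7, a ubiquitin ligase subunit (-0.61 ± 0.18), which kept its call in 2 of the 22 fits that each left out 1 library, those without double mutant day 2 replicate 1 or 2. In the others its value lay between -0.75 and -0.47, and it was also not called after RLE scaling (-0.59), without the filter (-0.63) or in a fit of the step alone (-0.62). For this step DESeq2 called 1 of the 13 higher and 3 lower, beside 2216 of all 14520 genes. With the replicate number as a block, 3 were called lower. Over all genes, the block gave 23068 calls summed over the stage steps of all genotypes, against 19349 without it.

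Of 6 genes around Cebpz (its nucleolar partners and the CCAAT-box factor NF-Y), 2 rose from undifferentiated cells to day 2 in WT, Noc4l (0.94 ± 0.28) and Noc3l (0.50 ± 0.16), where 50.9% of all genes were called. Their calls were lost without WT day 2 replicate 2 (0.69 and 0.42), and without undifferentiated WT replicate 2 (Noc4l, 0.91) or 1 (Noc3l, 0.38). Between days 2 and 4 in WT, Noc3l (-0.92 ± 0.16) and Nfya (-0.72 ± 0.19) fell (1 to 3 of the 6 with a library left out), where 604 of all genes fell, and a fit of the step alone lost both calls (-0.93 and -0.73). The Nfya call was also lost without WT day 2 replicate 2 (-0.48), day 4 replicate 1 (-0.73) or day 4 replicate 2 (-0.70). Between W330R and WT over days 2 to 6, edgeR called 0 of the 6, 0 had an unadjusted p under 0.05 and DESeq2 called 0, beside 29% of all genes. The same counts held between the double mutant and W330R, beside 17.2% of all genes. Against WT, beside 9.57% of all genes, 1 of the 6 was called higher in the double mutant (0 to 2 when any 1 library was left out, 0 in a fit of the compared conditions alone). In the WT step from day 4 to day 6, edgeR called 0 genes in each of these lists, beside 0.324% of all genes. At an unadjusted p under 0.05 there were 3 of the C/EBP regulators, 3 adipocyte genes, 2 acute-phase genes, 2 stress genes, 2 cofactors and 0 of those around Cebpz, and DESeq2 called 1, 2, 1, 0, 0 and 0. Over all genes 1507 had an unadjusted p under 0.05 and DESeq2 called 275.

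Markers of cell types stood beside these levels as follows. The 7 adipocyte markers, 3 of which (Adipoq, Fabp4 and Pparg) are also among the C/EBP-driven genes above, summed to 40.2 and 41.6 CPM in undifferentiated WT. On day 6 the sum was 4595 and 9147 CPM in WT, 1418 and 1625 CPM in W330R, and 1685 and 3003 CPM in the double mutant, with Fabp4 the most abundant. Thus WT was highest on day 6 in this sum, as in Cebpa. On day 2 the sum was 3177 and 2742 CPM in WT, 2512 and 1953 CPM in W330R, and 4308 and 3262 CPM in the double mutant, so that the double mutant stood above WT in the sum and below it in Cebpa. Of the 8 mesenchymal stromal markers, 7 or 8 had over 3 counts in both libraries of every condition, with sums of 21030 and 19828 CPM in undifferentiated WT (Col1a2 the most abundant) and 3336 and 3093 CPM on WT day 2 (Vim the most abundant). The 3 cartilage markers, Acan, Col2a1 and Sox9, differed most between replicates in WT and the double mutant on days 2, 4 and 6, always with replicate 1 higher. They summed to 1152 and 1127 CPM in undifferentiated WT and 931 and 210 CPM on WT day 2, where Cebpa was at 76.9 and 134 CPM. On day 6 the cartilage sum was 2125 and 455 CPM in WT, 744 and 782 CPM in W330R, and 5141 and 1549 CPM in the double mutant, where Cebpg was at 63.6 and 125 CPM, with Col2a1 the most abundant. The part of these cells in the C/EBP results was not tested.

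The other marker sets were low. The 5 markers of macrophages and other blood cells summed to between 2.63 and 16.4 CPM, mostly from Cd68, and the 3 endothelial markers to between 1.13 and 23.9 CPM, from Tek and Pecam1. The 3 epithelial markers stayed at or under 3.67 CPM (Cdh1 or Krt14 the most abundant), the 3 bone markers at or under 0.975 CPM and the 3 muscle markers at or under 0.243 CPM. Dnmt3a transcripts, which the counts do not separate into the introduced and the endogenous gene, ranged from 68.5 to 347 CPM over the 22 libraries. On days 2 to 6 they ranged from 105 to 322 CPM in WT, 87.4 to 142 CPM in W330R and 68.5 to 148 CPM in the double mutant.

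Cebpa and Cebpg, the pair called lower in W330R on day 6, are near neighbours on chromosome 7, with 1 gene between them in RefSeq's order of coding genes, Gm45095, which the count table does not list. Of the tested genes around the pair, Pepd was at -0.17 ± 0.09 (edgeR adjusted p = 0.175), Lrp3 at -0.68 ± 0.28 (adjusted p = 0.0785) and Kctd15 at -0.31 ± 0.16 (adjusted p = 0.154) over days 2 to 6 in W330R minus WT. Slc7a10 and Chst8 did not pass the filter on low counts. The transcripts overlap other genes to different degrees. For Cebpd, 15.003% of exon bases overlap Spidr on the opposite strand, and 18.1% of the 50-base stretches of Cebpb occur also in Tmem189. The overlap was 7.64% of Ddit3 with Mars and 4.20% of Cebpz with Cebpzos, both on the opposite strand, and 1.93% or less for Cebpa and Cebpg. Whether the counting used the strand is not stated.

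RefSeq promoters on GRCm38.p6 were at hand for 4 of the 6 members, and Cebpd and Cebpz are only named. The 250 bases before the start are printed for Cebpb, which had the largest change of the 6, and for Cebpa and Cebpg, which were both lower in W330R. They lie at chr2:167688665-167688914 on the plus strand, chr7:35119043-35119292 on the plus strand and chr7:35056567-35056816 on the minus strand, and each reads 5′ to 3′ on the strand of its gene. Capitals mark exact matches on either strand to the motifs searched, of which Cebpa had none.
Cebpb: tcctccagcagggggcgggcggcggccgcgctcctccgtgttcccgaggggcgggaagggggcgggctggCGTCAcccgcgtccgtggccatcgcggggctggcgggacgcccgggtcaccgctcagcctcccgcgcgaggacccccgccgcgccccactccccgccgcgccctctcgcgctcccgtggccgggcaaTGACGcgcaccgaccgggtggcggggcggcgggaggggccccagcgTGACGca
Cebpa: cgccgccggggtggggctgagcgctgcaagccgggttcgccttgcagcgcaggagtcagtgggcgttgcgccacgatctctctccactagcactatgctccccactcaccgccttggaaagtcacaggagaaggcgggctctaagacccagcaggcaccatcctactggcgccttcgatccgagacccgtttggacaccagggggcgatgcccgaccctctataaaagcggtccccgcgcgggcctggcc
Cebpg: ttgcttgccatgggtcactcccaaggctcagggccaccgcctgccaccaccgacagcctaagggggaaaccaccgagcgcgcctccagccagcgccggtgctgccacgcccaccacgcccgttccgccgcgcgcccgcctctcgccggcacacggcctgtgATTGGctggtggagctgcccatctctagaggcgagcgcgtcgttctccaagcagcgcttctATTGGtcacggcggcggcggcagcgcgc

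Motifs were searched on both strands, and no matches overlapped. Cebpb held TGACG, the core of the cAMP response element, at 3 places, starting 180, 53 and 7 bases before the start, and 17.7% of 32817 promoters held it. Cebpg held CCAAT, the box that NF-Y binds, at 2 places, 89 and 28 bases before the start, and Ddit3 held it at 1, 77 bases before the start, beside 33.8% of promoters. TTGCNNAA, a core of C/EBP sites, and TGATGNAA, a composite of C/EBP and ATF sites, had no exact match in the 4 windows, beside 9.57% and 3.45% of promoters. Sites that differ from these patterns by a base, or that lie farther from the start, were not searched for, so these promoters may still hold C/EBP sites. CpG, the sequence that DNMT3A methylates, occurred 41 times in the window of Cebpb, 29 in Cebpg, 22 in Cebpa and 20 in Ddit3, against a median of 6. These matches describe sequence only, and methylation of these windows was not measured in this series.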

How the data were processed

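The authors deposited whole counts per gene symbol for 22 libraries of C3H 10T1/2 cells. The submitters' processing notes name kallisto, DESeq2 1.40 and GRCm39; the role of each, the annotation and the strand used are not given in the sources used here. kallisto gives fractional estimates, so the whole counts may be rounded estimates, which bears on the floor in counts and on the chi-square of counting error. Low genes were removed by filterByExpr (at least 10 in a library, 15 in sum) and libraries scaled by TMM, with edgeR 4.0.16 under R 4.3.3. One quasi-likelihood model with a mean per condition was fitted to all 22 libraries, so that all conditions shared the estimate of the spread. There were 24 contrasts, with Benjamini-Hochberg adjustment over all 14520 genes of each, called at an adjusted p under 0.05. The SE was the absolute log2 fold change divided by the square root of the F statistic. Depth was 8859501 to 47453908 counts per library, and 3 counts were the floor.

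The genes named were the members, Cebpe, and from each list the called gene with the largest change and a mean log2 CPM of at least 1, with further called genes where 5 or fewer were called. Likeness was Pearson correlation of log2 CPM (prior count 2), with the 3 closest genes named per member. The lists were regulators of C/EBP genes, C/EBP-driven adipocyte genes, acute-phase genes, stress genes, cofactors, genes around Cebpz, and markers of 8 cell types. Older symbols (Ero1l, Rfwd2, Emr1) were matched through RefSeq synonyms. Members and lists were chosen with earlier results of these data known. Lengths and overlaps came from GENCODE vM21 (GRCm38) and promoters from RefSeq (GRCm38.p6). Alternatives were DESeq2 1.42.0, RLE scaling, no filter, a fit of the contrast's own conditions, a block for replicate number, and omission of every library in turn; for likeness, Spearman's correlation and condition means. limma 3.58.1 was loaded with edgeR, and Python 3.11.15 drew the figures. The edgeR and DESeq2 fits were tested on simulated counts in which each gene had the same spread in every condition. Replicates here differed in spread by condition, so the simulation did not test the shared estimate of the spread.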

Additional observations from a re-analysis of the deposited data

How the results depend on the processing

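Of the 594 values that the 22 called member results took under 27 alternatives, 508 kept the call, 86 lost it and 0 reversed, while 38 of 3294 uncalled values gained one and 85 changed sign without a call. Of the 27, 22 left out 1 library, and for a single step or day most of these libraries lay outside the contrast. The Cebpb call from day 2 to day 4 in W330R, for example, was kept in 18 of these 22. It was lost without each library of that step. RLE scaling changed 0 calls of members and lost 1 call each of the list genes Ccl2 and Fbxw7. The median of all genes shifted by at most 0.0290 with RLE scaling and 0.0342 with DESeq2. With only the conditions of the contrast in the fit, which leaves fewer libraries to estimate the spread, the members called went from 4 to 7 for W330R against WT at each stage, from 1 to 0 for the double mutant against W330R, from 1 to 0 for the double mutant against WT, and from 0 to 1 for the differences between stages. Of the 7 member calls for W330R against WT with only the conditions, 6 were in undifferentiated cells, where the fit used gave 0. The calls of Cebpa on days 2 and 4 and of Cebpg on day 6 were lost there. For the double mutant against WT on single days the members called were 3 with DESeq2 and 2 without the filter. The cause was not tested.

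Leaving out each library in turn, with a lone library assumed to vary like the other conditions, gave 7 to 10 calls for the stage steps (9 with all libraries), 2 to 5 for W330R against WT (4, with 2 left without W330R day 6 replicate 2), and 0 to 1 for the double mutant against W330R (1). The range was 0 to 2 for the double mutant against WT (1), 3 to 8 for the averaged contrasts (7, with 3 left without W330R day 6 replicate 2), and 0 to 1 for the differences between stages (0).

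The labels do not say what a replicate number marks, and the numbers were not taken to pair samples, since not every pair of conditions correlated above 0.1 in the deviations of same-numbered libraries. All 27 of the 55 pairs that did lay among the 36 within days 2 to 6 (mean there 0.22, highest 0.53), and all 18 libraries deviated most like a library of their own number, a hint of pairing that comes from the data and not the design. With 2 libraries in a condition their deviations mirror each other, so the count of libraries is not separate from the correlations. With the replicate number as a block the counts were 13, 4, 1, 1, 8 and 0 in the same order. The block lost 0 calls and gained 5, those of Cebpb (-1.13) and Cebpd (-0.88) from day 2 to day 4 in WT, Cebpd from day 2 to day 4 in W330R (-0.95), Cebpz from undifferentiated cells to day 2 in WT (-0.49) and Cebpd in the averaged double mutant against W330R (-0.48).

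Genes called across the table, summed over contrasts, moved beyond 1.5 times for W330R against WT (2685 in the fit used, 5063 with DESeq2, 4094 with only the conditions, 4906 with the block, 1316 to 3238 with a library left out) and for the double mutant against W330R (883, then 2266, 0 and 1789, and 505 to 1132). They also moved for the double mutant against WT (127, then 872, 0 and 399, 275 without the filter, and from 5 without WT day 6 replicate 2 to 312 without WT day 6 replicate 1) and for the differences between stages (577, then 1277, 1198 and 1040, and 169 to 850). Of the 4094 genes for W330R against WT with only the conditions, 4043 were called in undifferentiated cells. In the fit used, undifferentiated cells gave 254, and days 2, 4 and 6 gave 445, 891 and 1095. Counts of list genes stayed within 1.5 times in 1754 of 1944 cases. Calls of list genes were kept in 1949 of 2133 and reversed in 0. Depth limits Cebpe and the list genes at or under 3 counts in undifferentiated WT, which were set at that floor in the medians of the step to day 2.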
